A study of Homo sapiens with 10 samples.

Results

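Genes that give endothelial cells their identity were examined in 10 RNA-Seq libraries of EA.hy926 cells. The 10 genes were *PECAM1*, *CDH5*, *ESAM*, *CLDN5*, *VWF*, *EMCN*, *TEK*, *TIE1*, *ERG* and *NOS3*, chosen by symbol out of 27945 symbols in the expression table, with the transcript of the highest mean taken for each symbol. Of these, 9 passed the filter on low values, as did 13333 symbols in all, and *CLDN5* did not. EA.hy926 is an established human line made by fusing umbilical vein endothelial cells with A549 lung carcinoma cells, so its clones carry genomes of both an endothelial and an epithelial parent. The libraries came from 3 clones with a homozygous CRISPR/Cas9 deletion of the promoter of the long noncoding RNA *VEGFA-LNC*, 3 clones with the corresponding deletion for *VEGFC-LNC*, and a pair of controls per deletion, 4 control libraries in all. Control cells had received the guide RNAs without Cas9 and had passed through the same clonal selection, so all 4 groups share transfection with guides and growth from selected cells. The comparison asks whether losing either lncRNA promoter altered expression elsewhere in the genome, here among genes that mark the endothelium. Each deletion is represented by clones, and the p-values measure the spread between these clones and control libraries only. The labels do not say whether the 2 controls of a set are separate clones, and each SD over 2 controls and each FDR counts them as separate samples.

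Endothelial cells line blood vessels and hold together through junctions built from cadherin and immunoglobulin-type adhesion proteins. They store von Willebrand factor in Weibel-Palade bodies, carry the Tie receptor tyrosine kinases that answer to angiopoietins, and make nitric oxide to relax the vessel wall. Many of these genes are bound and activated by ETS-family transcription factors, of which ERG is the member most closely tied to the endothelial lineage.

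Reads of 9 of the 10 genes were present in every library. Values are FPKM, which are scaled to transcript length and library size, so that levels can be set side by side between genes. The libraries rested on 6743972 to 24197620 reads, as recovered from FPKM and length. Over the 4 control libraries, the mean was 116 FPKM for *CDH5*, 67.3 for *NOS3*, 55.6 for *TIE1*, 53.6 for *ESAM*, 33.1 for *PECAM1*, 24.2 for *ERG*, 19.03 for *TEK*, 5.76 for *EMCN* and 1.00 for *VWF*. In this order the control ranges of *TIE1* (49.2 to 62.9 FPKM) and *ESAM* (39.0 to 69.2 FPKM) overlapped, and those of all other neighbours in the order did not. Among the 6 clones, the median was 228 FPKM for *CDH5*, 87.0 for *ESAM*, 59.7 for *TIE1*, 49.7 for *PECAM1*, 42.0 for *NOS3*, 22.2 for *ERG*, 16.9 for *TEK* and 3.65 for *VWF*. The clone median of *EMCN* was 0.146 FPKM, which placed it below *VWF* instead of above it. In bulk libraries, fewer cells that express a gene and less RNA per cell cannot be told apart.

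Of 15 epithelial markers, only the keratins *KRT7*, *KRT8* and *KRT18* passed the filter, and *EPCAM* and *CDH1* did not. Together the 15 markers summed to 1077 to 1088 FPKM in the *VEGFA-LNC* controls, 487 to 1312 in the *VEGFA-LNC* deletion clones, 898 to 912 in the *VEGFC-LNC* controls and 439 to 867 in the *VEGFC-LNC* deletion clones. For the 10 endothelial genes, the sums were 357 to 368, 215 to 798, 387 to 391 and 362 to 586 FPKM in the same order of groups. Both sums thus spread over a wider range among clones than among controls. The epithelial sum was almost wholly that of the keratins, with means of 513 (*KRT7*), 284 (*KRT8*) and 285 (*KRT18*) FPKM in the *VEGFA-LNC* controls. *EPCAM* and *CDH1* averaged 0.219 and 0.011 FPKM over the 10 libraries. The sum thus gives keratin level more than a balance of epithelial and endothelial expression, whose part in the results below was not tested. Of 6 blood cell markers, *ITGAM* alone passed the filter, and the 6 summed to no more than 0.718 FPKM in any library.

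**Figure D1:**
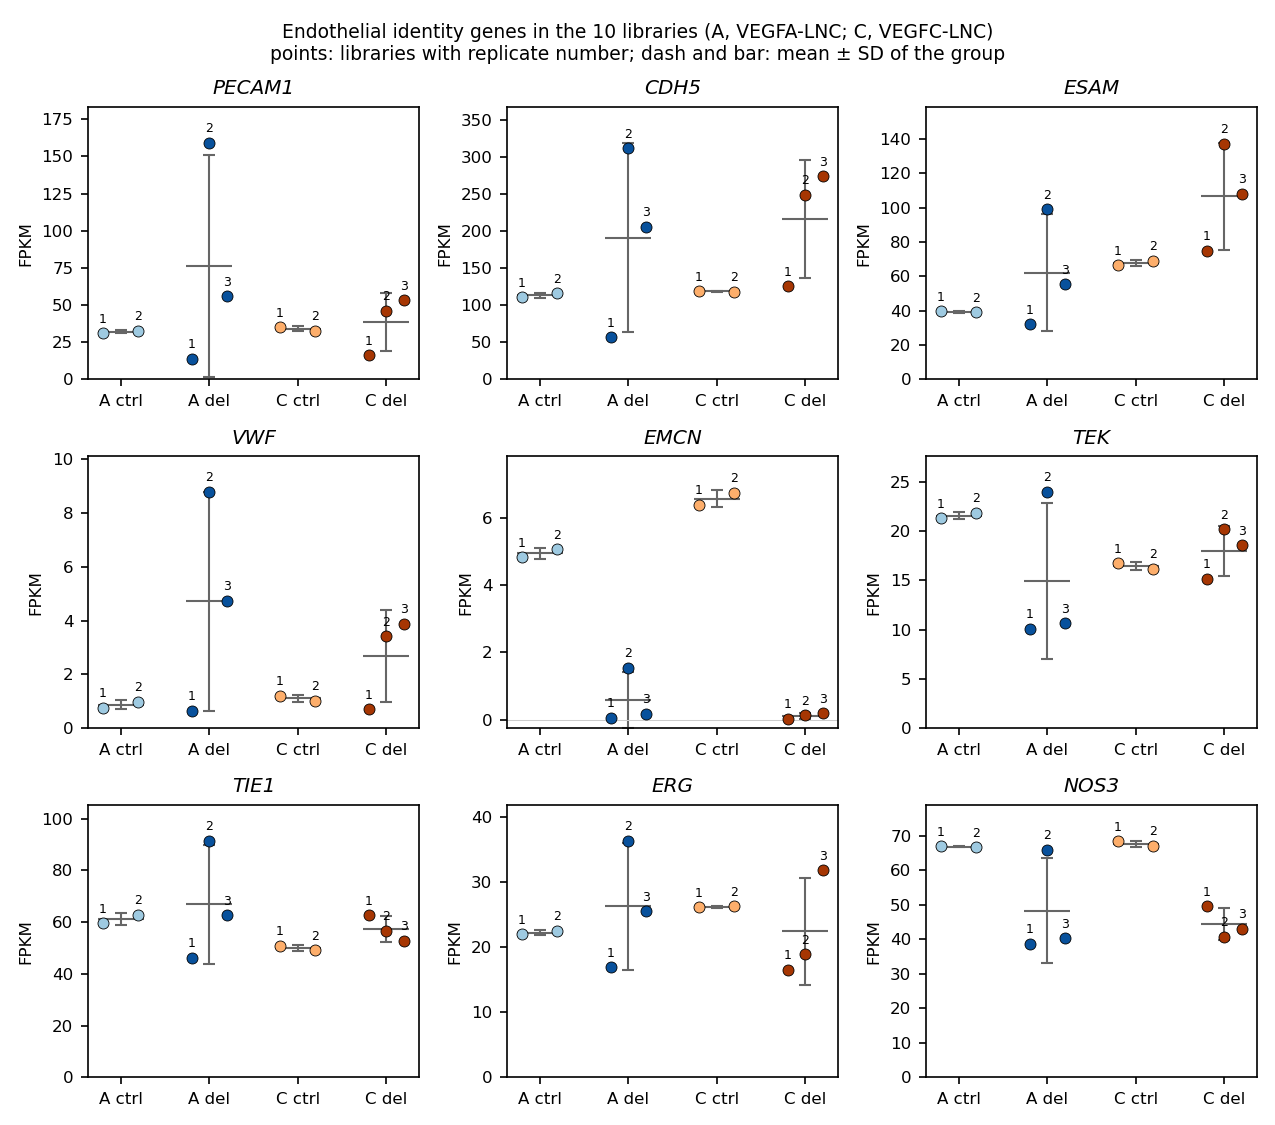
FPKM of the 9 detected endothelial identity genes in each library (points, numbered by replicate) for the VEGFA-LNC (A) and VEGFC-LNC (C) controls and deletion clones, with the mean and SD of each group as dash and bar. Control pairs lie close together in every panel, clones spread widely for PECAM1, CDH5, ESAM and VWF, and all 6 clones lie below all 4 controls for EMCN and NOS3.

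The main difference among these genes lay in *EMCN*, which encodes endomucin, a sialomucin of the venous and capillary endothelial surface. Its transcript NM_016242 lies on chromosome 4 (hg19, 101316498 to 101439250, minus strand). The 2 *VEGFA-LNC* control libraries held 4.83 and 5.06 FPKM, against 0.050, 1.54 and 0.172 FPKM in the *VEGFA-LNC* deletion clones. The *VEGFC-LNC* controls held 6.39 and 6.74 FPKM, against 0.022, 0.121 and 0.184 FPKM in the *VEGFC-LNC* deletion clones. All 6 clones were thus below all 4 controls, with clone 2 of the *VEGFA-LNC* set the nearest to them. Such a separation of 6 clones from 4 controls on the low side was present in 2.01% of the 13333 tested genes, and it was also present for *NOS3*. The clone values rest on few reads, between 3 and 114 for *VEGFA-LNC* and between 2 and 9 for *VEGFC-LNC*, while the controls held between 244 and 656.

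For *VEGFA-LNC*, *EMCN* averaged 0.586 ± 0.826 FPKM (SD, n = 3) over the clones and 4.95 ± 0.164 FPKM (SD, n = 2) over the controls, an 8.44-fold lower mean. The fitted log2 difference was -3.64 (SE 0.85), and with a limma FDR of 0.0609 it did not pass the threshold. It passed without clone 1 (FDR 0.0345) or clone 2 (FDR 0.00615) of that set, in fits where 1732 of 13295 and 168 of 13257 tested genes were called. Both fits reuse the same libraries, and clone 2 is the clone nearest to the controls, whose removal narrows the spread. Neither value is thus separate support for a difference. Upon *VEGFC-LNC* deletion the mean was 0.109 ± 0.0817 FPKM (SD, n = 3) against 6.56 ± 0.247 (SD, n = 2), a 60.2-fold lower mean. Here *EMCN* fell by 5.08 on the log2 scale (SE 0.85, limma FDR of 0.0467), and it was the only endothelial identity gene called in either deletion, beside 2.75% and 0.473% of all tested genes. The call did not hold in most other settings. A fit with the replicate number as a block gave an FDR of 0.0884, and leaving out any 1 of 8 libraries gave FDRs from 0.0707 to 0.447. With voom on reads the FDR was 0.0544, and with the control pairs averaged to 1 sample each it was 0.876. The call held in 7 of 20 settings. It held with a pseudocount of 1 (FDR 0.0121), only the libraries compared (FDR 0.0119) and all 4 controls as 1 group (FDR 0.0168). With the mean of all transcripts of a symbol the FDR was 0.0454, and with scaling by the median of ratios 0.0489. The call also held without clone 1 (FDR 0.00924) or clone 2 (FDR 0.00237) of the *VEGFA-LNC* set, where 1157 of 13295 and 84 of 13257 tested genes were called. These clones are no part of the *VEGFC-LNC* difference. Leaving them out alters only the variance estimate shared by the groups and the set of tested genes, so both values are no separate support for a difference. The *VEGFA-LNC* effect minus the *VEGFC-LNC* effect was 1.44 (SE 1.20, limma FDR of 0.554).

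A second transcript of *EMCN*, NM_001159694, gave mean values of 4.90 and 0.574 FPKM for the controls and clones of *VEGFA-LNC*, and 6.47 and 0.110 FPKM for those of *VEGFC-LNC*. The transcripts have 4023 and 3985 exonic bases and near-identical values, so the second is no separate measurement. The 22 tested genes within 5 Mb of *EMCN* had a median log2 difference of -0.08 upon *VEGFA-LNC* deletion and of -0.18 upon *VEGFC-LNC* deletion. *EMCN* itself lay at -3.64 and -5.08.

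*NOS3*, the endothelial nitric oxide synthase, was the other gene for which all clones lay below all controls. It lies on chromosome 7 (hg19, 150688144 to 150711687, plus strand). Control libraries held 67.0 and 66.8 FPKM for *VEGFA-LNC*, and 68.4 and 67.1 FPKM for *VEGFC-LNC*. Clones held 38.8, 66.0 and 40.3 FPKM for *VEGFA-LNC*, and 49.7, 40.8 and 43.2 FPKM for *VEGFC-LNC*. Clone 2 of the *VEGFA-LNC* set lay just under the controls, and the other 5 clones were farther below.

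The fitted log2 difference of *NOS3* was -0.51 (SE 0.22, limma FDR of 0.238) upon *VEGFA-LNC* deletion and -0.61 (SE 0.22, limma FDR of 0.204) upon *VEGFC-LNC* deletion, and neither passed the threshold. Without clone 2, the *VEGFA-LNC* difference was -0.76 with an FDR of 0.0429, in a fit where 168 of 13257 tested genes were called. Leaving out the clone nearest to the controls narrows the spread, so this value is no separate support for a difference. The 4 transcripts of *NOS3* in the table gave means of 54.1 to 67.3 FPKM in the *VEGFA-LNC* controls and 36.5 to 48.4 FPKM in their clones. *ATG9B*, which overlaps *NOS3* on the opposite strand by 2391 bases, had means from 0.030 to 0.199 FPKM over the 4 groups, far below those of *NOS3*. Of 13 tested genes of the nitric oxide pathway, among them the abundant *CAV1*, a caveolar protein that binds the synthase, and *HSP90AA1*, a chaperone, 0 were called in either deletion by limma. At an unadjusted p under 0.05 there were 1 and 2 such genes upon *VEGFA-LNC* and *VEGFC-LNC* deletion, beside 19.8% and 18.8% of all tested genes, and voom on reads also called 0 in both.

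A window upstream of a RefSeq transcription start is shown for each of *EMCN* and *NOS3*, the genes whose clones all lay below the controls. The windows hold 250 bases on the strand of the gene, on the GRCh38.p14 build, which is not the build of the expression table. Whether their starts are those of the transcripts measured here was not checked. Capitals mark GGAAG or its reverse complement CTTCC, letters found at the core of many ETS-family binding sites. The *EMCN* window lies at chr4:100518023-100518272 on the minus strand and the *NOS3* window at chr7:150993532-150993781 on the plus strand.
EMCN: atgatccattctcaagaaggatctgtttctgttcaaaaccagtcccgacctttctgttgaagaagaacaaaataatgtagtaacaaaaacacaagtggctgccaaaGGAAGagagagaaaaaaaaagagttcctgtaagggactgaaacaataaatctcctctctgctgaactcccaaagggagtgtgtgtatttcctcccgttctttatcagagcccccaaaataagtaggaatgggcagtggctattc
NOS3: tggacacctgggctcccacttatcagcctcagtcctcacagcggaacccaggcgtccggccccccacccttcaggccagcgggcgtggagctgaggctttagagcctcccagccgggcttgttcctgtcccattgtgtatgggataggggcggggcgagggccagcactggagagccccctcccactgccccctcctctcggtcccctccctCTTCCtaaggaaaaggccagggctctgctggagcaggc
Each window shown held 1 match, and so did another *NOS3* window at chr7:150993554-150993803. Over all 35116 RefSeq promoter windows of this length, 65.1% held at least 1 match on either strand, so that a match does not set these promoters apart. RefSeq windows were matched for 5 of the 10 genes, namely *EMCN*, *NOS3*, *TEK*, *TIE1* and *ERG*.

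Adhesion genes of the junction had higher group means in the clones than in the controls, with a spread between clones that left none of them past the threshold. *PECAM1* encodes the platelet and endothelial adhesion molecule CD31 (chromosome 17, hg19, 62396777 to 62407083, minus strand). Its controls held 31.2 and 32.8 FPKM for *VEGFA-LNC* and 35.3 and 32.9 FPKM for *VEGFC-LNC*. Its clones held 13.9, 159 and 56.1 FPKM for *VEGFA-LNC* and 16.5, 46.1 and 53.2 FPKM for *VEGFC-LNC*. Clone 1 of each deletion was below all 4 controls and clones 2 and 3 of each were above them, so that clones and controls overlapped. The highest clone held 11.4 times the level of the lowest, against 1.13 times among the 4 controls. The log2 differences were 0.64 (SE 0.87, limma FDR of 0.739) and 0.01 (SE 0.87, limma FDR of 0.996) for the *VEGFA-LNC* and *VEGFC-LNC* deletions.

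*CDH5* encodes the vascular endothelial cadherin of adherens junctions (chromosome 16, hg19, 66400510 to 66438689, plus strand). Controls held 111 and 116 FPKM for *VEGFA-LNC* and 119 and 118 FPKM for *VEGFC-LNC*. Clones held 56.6, 312 and 206 FPKM for *VEGFA-LNC* and 126, 250 and 275 FPKM for *VEGFC-LNC*. In the *VEGFC-LNC* set all 3 clones were above both controls, and in the *VEGFA-LNC* set clone 1 was below them. The log2 differences were 0.44 (SE 0.63, limma FDR of 0.752) upon *VEGFA-LNC* deletion and 0.79 (SE 0.63, limma FDR of 0.501) upon *VEGFC-LNC* deletion.

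*ESAM* encodes an adhesion molecule of endothelial tight junctions and platelets (chromosome 11, hg19, 124623019 to 124632223, minus strand). Its controls already lay apart, with 39.8 and 39.0 FPKM for *VEGFA-LNC* and 66.4 and 69.2 FPKM for *VEGFC-LNC*. Clones held 32.1, 99.0 and 55.4 FPKM for *VEGFA-LNC* and 74.9, 137 and 108 FPKM for *VEGFC-LNC*. The 3 *VEGFC-LNC* clones were above their controls, and the *VEGFA-LNC* clones overlapped with theirs. The log2 differences were 0.51 (SE 0.41, limma FDR of 0.549) upon *VEGFA-LNC* deletion and 0.61 (SE 0.41, limma FDR of 0.430) upon *VEGFC-LNC* deletion.

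The fourth junction gene, *CLDN5*, the main claudin of endothelial tight junctions, had 0 reads in each of the 10 libraries for both of its transcripts. A count of 0 allows up to 3 reads, which equals 0.0536 to 0.192 FPKM depending on the depth of the library and covers counting error only. *CLDN5* was thus not detectable at this depth in controls or in clones, and no comparison was made.

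Of 16 tested junction partners, which include the catenins and the junction scaffolds, 0 were called upon either deletion by limma. At an unadjusted p under 0.05 there were 1 and 2, beside the 19.8% and 18.8% of all tested genes, and voom called 0. Their median log2 difference was 0.12 upon *VEGFA-LNC* deletion and 0.03 upon *VEGFC-LNC* deletion, beside -0.06 and -0.09 over all tested genes. The most abundant partners were *CD99*, an adhesion molecule used by leukocytes in crossing the endothelium, and *CTNNA1*, the alpha-catenin of adherens junctions. *CD99* held 106 to 108 FPKM in the *VEGFA-LNC* controls and 92.4 to 347 FPKM in their clones, with a log2 difference of 0.93 (limma FDR of 0.335). *CTNNA1* had log2 differences of -0.12 and -0.32 for the *VEGFA-LNC* and *VEGFC-LNC* deletions, with limma FDRs of 0.635 and 0.211.

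*VWF*, the clotting glycoprotein that forms Weibel-Palade bodies, was expressed at a low level in this line and spread widely between clones (chromosome 12, hg19, 6058040 to 6233841, minus strand). Controls held 0.772 and 0.998 FPKM for *VEGFA-LNC* and 1.21 and 1.03 FPKM for *VEGFC-LNC*. Clones held 0.650, 8.78 and 4.74 FPKM for *VEGFA-LNC* and 0.716, 3.41 and 3.88 FPKM for *VEGFC-LNC*. Clone 1 of each deletion was below all 4 controls, and the other 4 clones were above all of them. These values rest on 85 to 1422 reads for the *VEGFA-LNC* clones and 101 to 219 reads for the *VEGFC-LNC* controls.

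The log2 difference of *VWF* was 1.70 (SE 0.99, limma FDR of 0.390) upon *VEGFA-LNC* deletion and 0.89 (SE 0.99, limma FDR of 0.636) upon *VEGFC-LNC* deletion. Without clone 1 of the *VEGFA-LNC* set, the only clone of that set below its controls, the *VEGFA-LNC* difference was 2.74 with an FDR of 0.0345. In that fit 1732 of 13295 tested genes were called. Leaving out the clone on the opposite side narrows the spread, so this value is no separate support for a difference. Among 14 tested genes of Weibel-Palade body cargo and release, 2 fell upon *VEGFA-LNC* deletion, beside 2.75% of all tested genes called. They were *EDN1*, the vasoconstrictor endothelin, and *PLAT*, the tissue plasminogen activator. *EDN1* held 43.1 to 44.3 FPKM in the *VEGFA-LNC* controls and 8.16 to 12.3 FPKM in the clones (log2 difference of -2.15, limma FDR of 0.0219). *PLAT* held 735 to 771 FPKM in the controls and 85.3 to 174 FPKM in the clones (log2 difference of -2.55, limma FDR of 0.0208). For both genes the *VEGFC-LNC* controls themselves were below the *VEGFA-LNC* controls, at 10.1 to 11.7 FPKM for *EDN1* and 231 to 238 FPKM for *PLAT*. Upon *VEGFC-LNC* deletion 0 of the 14 genes were called by limma or by voom, and 3 had an unadjusted p under 0.05, beside 18.8% of all tested genes. The effects of the 2 deletions differed for *EDN1* by -3.48 on the log2 scale (limma FDR of 0.0181).

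The Tie receptors *TEK* and *TIE1* kept a narrower range over the 6 clones than the adhesion genes did. The highest clone held 2.38 times the level of the lowest for *TEK* and 1.98 times for *TIE1*. *TEK*, also called TIE2, is the receptor for the angiopoietins (chromosome 9, hg19, 27109139 to 27230176, plus strand). Controls held 21.3 and 21.9 FPKM for *VEGFA-LNC* and 16.8 and 16.2 FPKM for *VEGFC-LNC*. Clones held 10.1, 24.0 and 10.7 FPKM for *VEGFA-LNC* and 15.2, 20.2 and 18.6 FPKM for *VEGFC-LNC*. Clones 1 and 3 of the *VEGFA-LNC* set were below all controls and clone 2 was above them, while the *VEGFC-LNC* clones lay on both sides of their controls. The log2 differences were -0.65 (SE 0.33, limma FDR of 0.319) and 0.11 (SE 0.33, limma FDR of 0.866), and their difference was -0.76 (SE 0.47, limma FDR of 0.417). Without clone 2, the *VEGFA-LNC* difference was -1.05 with an FDR of 0.0301, and the difference between the deletions was -1.16 with an FDR of 0.0473. In that fit 168 and 182 of 13257 tested genes were called in these comparisons. Clone 2 is the clone on the opposite side, and leaving it out narrows the spread, so these values are no separate support for a difference.

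*TIE1* is the orphan partner that forms complexes with TEK (chromosome 1, hg19, 43766566 to 43788781, plus strand). Controls held 59.5 and 62.9 FPKM for *VEGFA-LNC* and 50.9 and 49.2 FPKM for *VEGFC-LNC*. Clones held 46.3, 91.6 and 62.8 FPKM for *VEGFA-LNC* and 62.7, 56.6 and 52.9 FPKM for *VEGFC-LNC*. The *VEGFC-LNC* clones were all above their own controls, yet within the range spanned by the 4 controls together. The log2 differences were 0.07 (SE 0.24, limma FDR of 0.900) and 0.19 (SE 0.24, limma FDR of 0.674).

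Of 9 tested partners of the angiopoietin-Tie system, which include the ligands *ANGPT1* and *ANGPT2* and the phosphatase *PTPRB*, 0 were called upon either deletion by limma or by voom, and 2 and 0 had an unadjusted p under 0.05 (19.8% and 18.8% of all tested genes). The most abundant were the signalling proteins *SHC1* and *PTPN11*, with log2 differences of -0.19 and -0.20 upon *VEGFA-LNC* deletion (limma FDRs of 0.824 and 0.583) and of 0.52 and -0.25 upon *VEGFC-LNC* deletion (limma FDRs of 0.460 and 0.465). The RefSeq windows of the receptor pair are shown in the same way as above, since *TEK* and *TIE1* are the 2 members of this family and their clones were not all on 1 side of the 4 controls. The *TEK* window lies at chr9:27108975-27109224 and the *TIE1* window at chr1:43300732-43300981, both on the plus strand of GRCh38.p14.
TEK: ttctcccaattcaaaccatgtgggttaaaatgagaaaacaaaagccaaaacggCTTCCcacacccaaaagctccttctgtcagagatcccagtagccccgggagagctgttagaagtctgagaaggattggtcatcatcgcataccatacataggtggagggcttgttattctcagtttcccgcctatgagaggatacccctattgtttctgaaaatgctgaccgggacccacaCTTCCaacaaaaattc
TIE1: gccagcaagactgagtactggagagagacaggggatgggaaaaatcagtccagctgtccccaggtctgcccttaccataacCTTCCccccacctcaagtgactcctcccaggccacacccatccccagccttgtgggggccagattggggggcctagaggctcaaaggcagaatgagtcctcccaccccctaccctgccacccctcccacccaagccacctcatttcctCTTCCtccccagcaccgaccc
Each of these windows held 2 matches to GGAAG or CTTCC. Another *TEK* window, at chr9:27109200-27109449, held 1 match.

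*ERG*, the ETS-family factor of the endothelial lineage, held 21.9 and 22.5 FPKM in the *VEGFA-LNC* controls and 26.1 and 26.3 FPKM in the *VEGFC-LNC* controls (chromosome 21, hg19, 39739183 to 40033704, minus strand). Clones held 16.9, 36.3 and 25.5 FPKM for *VEGFA-LNC* and 16.5, 18.9 and 31.8 FPKM for *VEGFC-LNC*. Clones lay on both sides of the controls in each set. The log2 differences were 0.17 (SE 0.34, limma FDR of 0.821) upon *VEGFA-LNC* deletion and -0.28 (SE 0.34, limma FDR of 0.658) upon *VEGFC-LNC* deletion. *EMCN* was below the controls in all 6 clones, while *ERG* was above all 4 controls in 2 clones and below all of them in 3.

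Among 22 tested transcription factors of the endothelium, 1 fell upon *VEGFA-LNC* deletion, beside 2.75% of all tested genes called. This was *KLF4*, a shear-responsive factor, with 2.98 to 3.51 FPKM in the controls and 0.864 to 1.60 FPKM in the clones (log2 difference of -1.43, limma FDR of 0.0321). Its level in the *VEGFC-LNC* controls was 0.695 to 0.732 FPKM. Upon *VEGFC-LNC* deletion 0 were called by limma or by voom, and 3 had an unadjusted p under 0.05, beside 18.8% of all tested genes. The most abundant factors were *ELK3*, an ETS-family repressor, and *EPAS1*, the hypoxia-inducible factor of the endothelium. *ELK3* had log2 differences of 0.26 (limma FDR of 0.453) and -0.11 (limma FDR of 0.736) and *EPAS1* of 0.11 (limma FDR of 0.855) and 0.56 (limma FDR of 0.280) for the *VEGFA-LNC* and *VEGFC-LNC* deletions.

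In all, 0 of 9 endothelial identity genes were called upon *VEGFA-LNC* deletion by limma, beside 2.75% of all tested genes, and 1 of 9 upon *VEGFC-LNC* deletion, beside 0.473% in all and 0.323% lower. At an unadjusted p under 0.05 there were 2 in each, *EMCN* and *NOS3*, a share near the 19.8% and 18.8% of all tested genes, and voom on reads called 1 and 0. Fitted values were above 0 for 6 genes and below 0 for 3 in each deletion. The median log2 difference was 0.17 upon *VEGFA-LNC* deletion and 0.11 upon *VEGFC-LNC* deletion, beside -0.06 and -0.09 over all tested genes. Clones and controls did not overlap for 2 genes upon *VEGFA-LNC* deletion, both lower in the clones, beside 39.0% of tested genes (23.7% with the clones lower), and for 5 genes upon *VEGFC-LNC* deletion, beside 47.8%. When the effects of both deletions were set against each other, 0 of 9 were called by limma or by voom and 0 had an unadjusted p under 0.05, beside 1.46% and 18.5% of all tested genes.

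**Figure D2:**
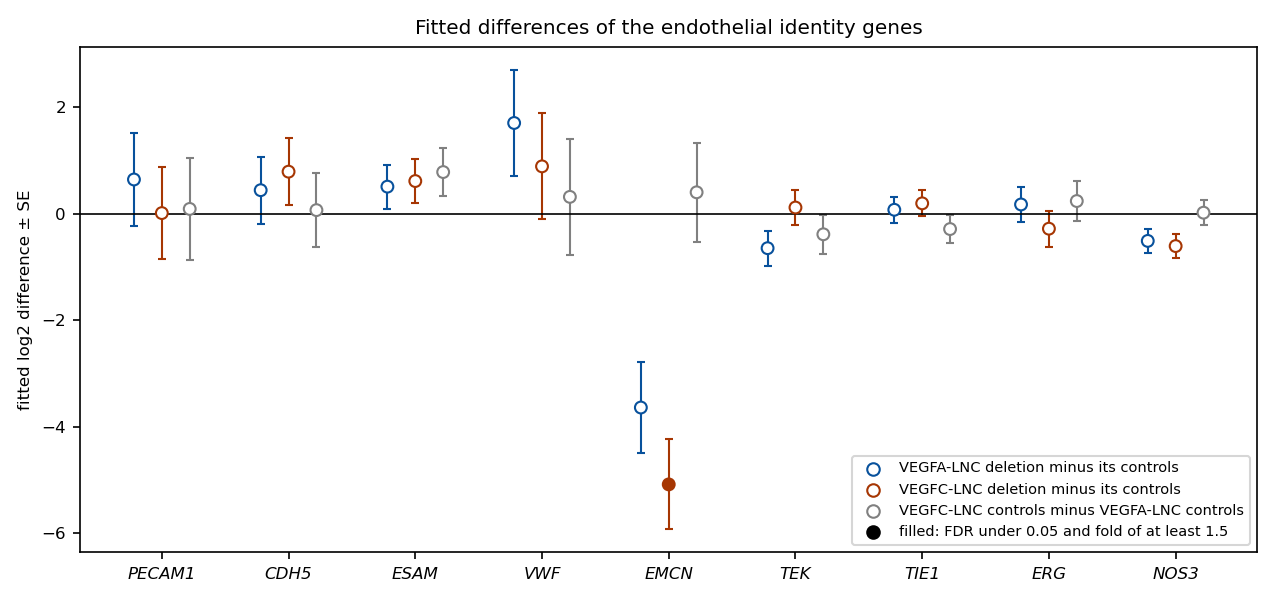
Fitted log2 difference with its SE for each endothelial identity gene, for each deletion against its own controls and for the VEGFC-LNC controls against the VEGFA-LNC controls. The filled point marks EMCN upon VEGFC-LNC deletion, at -5.08, the only difference called, and the other differences from -3.64 to 1.70 are open.

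Among 21 further endothelial surface genes that were tested, 0 were called upon either deletion by limma, 5 and 2 had an unadjusted p under 0.05 (19.8% and 18.8% of all tested genes), and voom called 1 and 0. The most abundant were *ENG*, a coreceptor for transforming growth factor beta, and *PROCR*, the protein C receptor. *ENG* held 304 to 305 FPKM in the *VEGFA-LNC* controls and 215 to 306 FPKM in their clones, and 219 to 227 FPKM in the *VEGFC-LNC* controls and 240 to 545 FPKM in theirs. *PROCR* held 345 to 346 and 142 to 376 FPKM, and 222 to 231 and 211 to 295 FPKM, in the same order. Over all 6 pathway lists, 3 of 94 tested genes were called upon *VEGFA-LNC* deletion, beside 2.75% of all tested genes, and 0 upon *VEGFC-LNC* deletion, beside 0.473%. At an unadjusted p under 0.05 there were 18 and 12 of the 94, beside 19.8% and 18.8% of all tested genes, and voom called 4 and 0. The median log2 difference over the 94 genes was 0.02 and 0.06.

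The genes were also followed clone by clone. In clone 1 of *VEGFA-LNC*, all 9 genes were below the mean of its own controls, with a median log2 difference of -0.78, while the median over all tested genes was -0.03. Clone 2 had 7 genes above and 2 below, with a median of 0.71, and clone 3 had 6 above and 3 below, with a median of 0.20. Among the *VEGFC-LNC* clones, clone 1 had 3 above and 6 below, with a median of -0.45. Clones 2 and 3 had 6 and 7 genes above, with medians of 0.29 and 0.28. The medians over all tested genes lay between -0.16 and -0.03 in the 6 clones.

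Clone 1 had the lowest difference in both deletions for 7 of the 9 genes, all but *TIE1* and *NOS3*. For *VWF*, the differences of the clones from their own controls were -0.38, 3.18 and 2.31 on the log2 scale for *VEGFA-LNC* and -0.58, 1.53 and 1.71 for *VEGFC-LNC*. For *PECAM1*, they were -1.19, 2.31 and 0.81 for *VEGFA-LNC* and -1.05, 0.44 and 0.64 for *VEGFC-LNC*. For *ERG*, they were -0.39, 0.71 and 0.20 for *VEGFA-LNC* and -0.66, -0.47 and 0.28 for *VEGFC-LNC*. Same-numbered clones of the 2 deletions also deviated together over all 13333 genes, with correlations of their deviations from the group means of 0.553, 0.409 and 0.219 for clones 1, 2 and 3.

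Between *VEGFA-LNC* clones, the SD of log2 values was 1.86 for *VWF*, 1.79 for *EMCN*, 1.76 for *PECAM1* and 1.28 for *CDH5*, against a median of 0.27 over 11755 genes with a mean of at least 1 FPKM. These SDs exceeded those of 99.1%, 98.9%, 98.7% and 96.2% of these genes. Between *VEGFC-LNC* clones the SDs were 1.27, 0.63, 0.92 and 0.61 for the same genes, against a median of 0.24. The Tie receptors and *NOS3* were steadier in the *VEGFC-LNC* clones, with SDs of 0.21 for *TEK*, 0.12 for *TIE1* and 0.15 for *NOS3*. Between the 2 control libraries of a set, the SD of these 9 genes was at most 0.24, for *VWF*.

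The distance between pairs of genes was the root mean square difference of their centred log2 values over the 10 libraries. It depends on the size and the pattern of their variation, so genes that vary little lie close together whether or not their patterns match. The distance was 0.33 for *TEK* and *NOS3*, 0.34 for *TIE1* and *ERG*, 0.41 for *CDH5* and *ESAM*, 0.49 for *PECAM1* and *CDH5* and 0.54 for *PECAM1* and *VWF*. *EMCN* was the most distant of the 9 genes, at 2.03 to 2.83 from each of the others, and its own values spanned 5.81 on the log2 scale. The points share libraries and controls, and the distances are a description.

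In a search of 11755 genes, *MYZAP* was among the genes nearest to *PECAM1* by this distance (0.31). *CDH5* lay nearest to *TM4SF18* (0.18) and *TGFBR2* (0.18), and *ESAM* to *TM4SF1* (0.21) and *SSH2* (0.21). *TM4SF1* and *TM4SF18* are tetraspanin-like membrane proteins of adjacent loci on chromosome 3, and *TGFBR2* is a receptor for transforming growth factor beta. *VWF* lay nearest to *TP53I11* (0.23) and *MANSC4* (0.29). Nearest to *TEK* were *EDNRB* (0.13), an endothelin receptor, and *MYCT1* (0.17), and nearest to *TIE1* were *GCH1* (0.09), which makes the cofactor of nitric oxide synthases, and *VPS26C* (0.09). *ERG* lay nearest to *TLR1* (0.12) and *GPRIN1* (0.15), and *NOS3* to *PDXDC2P-NPIPB14P* (0.17) and *FAM114A2* (0.17). The genes nearest to *EMCN* were *HLA-DRB1* (0.53) and *SPRR2B* (1.02), farther off than for any other of these genes. *HLA-DRB1*, a class II histocompatibility gene, had means of 2.40 and 0.293 FPKM in the controls and clones of *VEGFA-LNC* and of 2.29 and 0.0153 FPKM in those of *VEGFC-LNC*.

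The unedited control sets were compared with each other to show how far apart libraries of the same line lay without a deletion. Of the 9 endothelial identity genes, 0 were called by limma or by voom and 0 had an unadjusted p under 0.05, beside 12.7% of all tested genes called and 31.3% at that p. The control sets did not overlap for any of the 9, with 7 higher and 2 lower in the *VEGFC-LNC* controls, beside 82.9% of tested genes, of which 33.7% of tested genes were higher and 49.2% lower. The largest gap was that of *ESAM*, with means of 67.8 ± 2.02 (SD, n = 2) and 39.4 ± 0.564 FPKM (SD, n = 2) and a log2 difference of 0.78 (SE 0.45, limma FDR of 0.275). In a fit of the 4 control libraries alone, with the spread taken from the close control pairs, the FDR was 5.32e-05 for *ESAM*, 0.00568 for *EMCN*, 0.00124 for *TEK*, 0.00349 for *TIE1* and 0.00679 for *ERG*, of which only *ESAM* reached an FC of 1.5. In that fit 4280 of 12917 tested genes were called and 8796 had an unadjusted p under 0.05, so such values do not set these genes apart. *NOS3* and *CDH5* were the nearest, with log2 differences of 0.02 (limma FDR of 0.968) and 0.07 (limma FDR of 0.959).

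Of the genes of the 6 pathway lists, 8 of 94 were called between the control sets, beside 12.7% of all tested genes. Lower in the *VEGFC-LNC* controls were the claudin *CLDN1* (-2.37, limma FDR of 0.00714), *EDN1* (-1.99, limma FDR of 0.0168), *PLAT* (-1.68, limma FDR of 0.0434), *IGFBP7* (-1.92, limma FDR of 0.0225), *CD63* (-1.21, limma FDR of 0.0370), *KLF4* (-2.03, limma FDR of 0.00668) and *HEY2* (-2.81, limma FDR of 0.0201). Higher was *EGFL7*, a secreted endothelial protein, by 1.46 on the log2 scale (limma FDR of 0.0234). Of 10 tested mesenchymal markers, 4 were called, all lower in the *VEGFC-LNC* controls. They were *FN1* (-3.48, limma FDR of 0.0249), *ACTA2* (-4.47, limma FDR of 0.0412), *SNAI1* (-1.18, limma FDR of 0.0345) and *COL1A1* (-1.34, limma FDR of 0.0370). Fitted values were below 0 for 7 of the 10 and above 0 for 3, namely *TAGLN*, *ZEB1* and *S100A4*. *COL1A1* was also the only mesenchymal marker of 10 tested that was called upon *VEGFA-LNC* deletion (-1.50, limma FDR of 0.0422). Its level was near the floor, with means of 0.308 FPKM in the *VEGFA-LNC* controls, 0.0443 in their clones and 0.0635 in the *VEGFC-LNC* controls. The 15 markers summed to 111 to 112 FPKM in the controls and 77.6 to 114 FPKM in the clones of *VEGFA-LNC*. In the *VEGFC-LNC* set they summed to 36.5 to 40.6 FPKM in the controls and 37.4 to 96.9 FPKM in the clones. The blood marker *ITGAM* was lower in the *VEGFC-LNC* controls (-1.88, limma FDR of 0.00841), at 0.061 to 0.067 FPKM.

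The tested genes within 5 Mb of each endothelial identity gene gave the level of the chromosome around it. For *CDH5*, the median log2 difference of 86 neighbours was -0.04 upon *VEGFA-LNC* deletion and -0.37 upon *VEGFC-LNC* deletion, where 68 of them were below 0 and the median of chromosome 16 was -0.42. For *VWF*, the medians of 87 neighbours were 0.03 and -0.64, with 75 below 0 in the *VEGFC-LNC* clones and a median of -0.28 over chromosome 12. *CDH5* and *VWF* themselves had fitted differences of 0.79 and 0.89 in the *VEGFC-LNC* clones, on the opposite side of 0 from their neighbours. In the separate *VEGFC-LNC* clones, the medians of the neighbours were -0.34, -0.43 and -0.30 for *CDH5* and -0.85, -0.59 and -0.50 for *VWF*. Each clone thus had the lower neighbourhood, including clone 1, where *VWF* itself was below its controls.

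The neighbours of *PECAM1*, *TIE1*, *ESAM*, *ERG* and *NOS3* had medians between -0.21 and 0.13 in both deletions. For *TEK* the medians were 0.32 and -0.29, over 7 neighbours only, and *TEK* itself lay on the opposite side of 0 with -0.65 and 0.11. For *NOS3*, the median of 55 neighbours was -0.21 upon *VEGFA-LNC* deletion and 0.02 upon *VEGFC-LNC* deletion, beside its own -0.51 and -0.61.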

How the data were processed

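RNA-Seq of 10 EA.hy926 libraries was analysed. The authors isolated total RNA, depleted rRNA and sequenced directional single-end libraries. Their methods name Trim Galore 0.4.4 (Phred cutoff of 30), STAR 2.5.4b on GRCh37 and featureCounts. They deposited FPKM values for RefSeq transcripts on hg19 in the layout that HOMER writes, and how this table was made and whether counting used strand are not given in the sources used here. Trimming, alignment and scaling to length and depth are thus already in the values.

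Groups came from the labels. The transcript with the highest mean FPKM was taken per symbol, and a gene entered the tests if its cpm, obtained as FPKM times the length in kb, reached 1 in 2 or more libraries. Values entered limma 3.58.1 (R 4.3.3) as log2(FPKM + 0.1) in 1 fit of 4 groups with 6 residual degrees of freedom and a trended variance. Fold changes on this scale understate the change of low genes. A gene was called at a Benjamini-Hochberg FDR under 0.05 over all tested genes and an FC of at least 1.5. Clones were compared with the controls of their own deletion, the control sets with each other, and the effect of the *VEGFA-LNC* deletion with that of the *VEGFC-LNC* deletion. Both deletion contrasts share 1 variance estimate per gene. Whole reads per gene were recovered from FPKM and length, and they served limma's voom as an alternative. The remaining steps used Python 3.11.15 with pandas 2.3.3 and numpy 2.4.6.

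Named genes were all 10 endothelial identity genes, the called and the 2 most abundant genes of each list, and the 2 genes nearest to each endothelial identity gene over the 10 libraries, except that a gene of this rule is not reported here. A few others were named after their values were seen, among them *KRT8*, *EPCAM*, *CDH1* and *ATG9B*. The members and lists were chosen with earlier results of these data known. The fit was tested on simulated data with independent noise and the same spread in all groups. In the real data clones spread more than controls and same-numbered clones deviated together, so that test does not cover these features.

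Same-numbered clones of the 2 deletions deviated together (correlations of 0.553, 0.409 and 0.219 over 13333 genes). Clones of different numbers were not compared, so whether the numbers pair the clones was not tested. The labels do not say what a number stands for. Controls did not deviate together with clones of the same number (-0.043 to 0.047). Control pairs differed less (mean chi-square per gene of 3.77 and 1.545) than pairs of clones did (20.8 to 138), and were counted as separate samples. The labels do not say whether they are separate clones, and with each pair averaged to 1 sample the genes called upon *VEGFA-LNC* and *VEGFC-LNC* deletion went from 367 and 63 to 0 and 1.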

Additional observations from a re-analysis of the deposited data

How the results depend on the processing

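*EMCN* stayed below its controls under all 20 alternatives in each deletion, a direction largely set beforehand by all 6 clones lying below all 4 controls. Its log2 differences were -4.64 to -2.02 (FDR 0.00615 to 0.731, called in 4) for *VEGFA-LNC* and -6.49 to -2.77 (FDR 0.00237 to 0.876, called in 7) for *VEGFC-LNC*. The number of endothelial identity genes called upon *VEGFC-LNC* deletion was 0 instead of 1 with a pseudocount of 0.01 (*EMCN* FDR 0.0714), without the filter (FDR 0.0688), with voom on reads (FDR 0.0544), with control pairs averaged to 1 sample (FDR 0.876) and with the replicate block (FDR 0.0884). It was 0 to 1 when libraries were left out in turn. Upon *VEGFA-LNC* deletion the number was 1 with a pseudocount of 1 and with voom (*EMCN* in both), and 0 to 3 when libraries were left out, with *VWF* and *EMCN* called without clone 1 and *EMCN*, *TEK* and *NOS3* without clone 2. Between the control sets it was 1, *ESAM*, with only the libraries compared. For the difference between the effects it was 0 to 1 when libraries were left out. The cause of these changes was not tested.

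With the replicate block *PECAM1* was at -0.19 upon *VEGFC-LNC* deletion, and the block changed no call of an endothelial identity gene other than that of *EMCN*. The block ties all libraries of the same number, controls included, although controls did not deviate together with clones of the same number (-0.043 to 0.047). Its values thus do not show what a pairing of clones alone would give. With all 4 controls as 1 group *TEK* was at -0.079 upon *VEGFC-LNC* deletion. When libraries were left out in turn, log2 differences upon *VEGFA-LNC* deletion ranged from -0.19 to 1.56 for *PECAM1*, -0.069 to 1.16 for *CDH5*, -0.18 to 0.31 for *TIE1* and -0.10 to 0.45 for *ERG*. Upon *VEGFC-LNC* deletion *PECAM1* ranged from -0.30 to 0.54. The difference between the effects ranged from -0.86 to 0.37 for *CDH5*, -0.38 to 0.12 for *TIE1*, -0.51 to 0.30 for *ESAM*, -0.20 to 1.55 for *PECAM1* and -0.15 to 0.23 for *NOS3*. The other fitted log2 differences of the endothelial identity genes kept their direction under the alternatives tried. In a window of 2 Mb the median of the *NOS3* neighbours upon *VEGFC-LNC* deletion was 0.17, and medians near 0 changed sign for *CDH5* (0.0098) and *ERG* (0.017) upon *VEGFA-LNC* deletion and for *TIE1* (0.017) upon *VEGFC-LNC* deletion.

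Counts over all tested genes moved more. Upon *VEGFA-LNC* and *VEGFC-LNC* deletion they were 367 and 63 as reported, 151 and 20 with the block, 19 and 26 with only the libraries compared, 29 and 55 with all 4 controls as 1 group, and 1732 and 1157 without clone 1 of *VEGFA-LNC*. They were 654 and 83 without the filter, 551 and 56 with voom, and 0 and 1 with control pairs averaged, where 834 and 592 genes had an unadjusted p under 0.05. Between the control sets they were 1690 as reported, 4280 with the 4 controls alone and 0 with pairs averaged, where 1224 had an unadjusted p under 0.05. For the difference between the effects they were 194 as reported, 86 with the block, 329 without the filter and 0 with pairs averaged, where 689 had an unadjusted p under 0.05. Leaving out libraries in turn gave 0 to 1732, 5 to 1157, 29 to 3066 and 5 to 692 in the 4 comparisons, each lowest without a control library and highest without clone 1 of *VEGFA-LNC*. The 0 was without control 1 of *VEGFA-LNC*, where 1260 genes had an unadjusted p under 0.05. The *EMCN* values of the clones rest on 2 to 114 reads, which limits their precision.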
